A study of Homo sapiens with 4 samples.

Results

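The genes described here are the machinery that copies DNA and the E2F and cyclin E factors that control it, read in HepG2, an established human hepatoma line, after depletion of the histone demethylase LSD1. A list of 38 genes defined the group, and each probe set whose platform annotation names 1 gene on that list, under its current or a former symbol, was a member. All 38 genes had such a probe set, 75 probe sets in all, among 19775 named genes and 54613 probe sets on the arrays other than Affymetrix controls. The LSD1-KD cells carried siRNA-2 or siRNA-1 against LSD1 (gene KDM1A), 1 array for each siRNA, and the controls carried an siRNA against GL3, 2 arrays. Transfection was done at about 50% confluence in DMEM containing 25 mM glucose and 10% serum, and RNA was taken 4 days later. Whether the 2 control arrays hold RNA of separate cultures is not stated. The 2 LSD1-KD arrays carried different siRNAs, so p-values that pool them include any difference between the siRNAs beside array-to-array spread. P-values of the other comparisons take their spread from the 2 control arrays, and that spread may be technical. HepG2 is 1 line, and each LSD1 siRNA was read once.

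Before DNA is copied, the origin recognition complex marks start sites, and CDC6 and CDT1 load the ring of MCM proteins there. In S phase this ring joins CDC45 and the GINS complex to form the active helicase. Primase and polymerases then extend new strands on the sliding clamp PCNA, which the RFC complex loads, and flap removal and ligation join the pieces. E2F transcription factors drive many of these genes together with those of nucleotide supply, and cyclin E with its kinase CDK2 starts S phase. These transcripts are low in resting liver and abundant in dividing hepatoma cells.

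The promoters of 6 members are shown because their genes were among those that differed most between the siRNAs (the first 4), or carried several E2F motif matches while moving in opposite directions (MCM6 and E2F1). Each runs from 250 bases before to 50 bases after the annotated gene start and comes from RefSeq, build GRCh38.p14. They lie at CDC45 (chr22:19479670-19479969, plus strand), TK1 (chr17:78187155-78187454, minus strand), CDC6 (chr17:40287629-40287928, plus strand), RRM2 (chr2:10122489-10122788, plus strand), MCM6 (chr2:135876394-135876693, minus strand) and E2F1 (chr20:33686336-33686635, minus strand). The last 2 were chosen after values were seen. Capitals mark the E2F motif, searched as TTTCCCGC, TTTCGCGC, TTTGCCGC and TTTGGCGC on both strands, and the CCAAT box, read as CCAAT or ATTGG.
CDC45: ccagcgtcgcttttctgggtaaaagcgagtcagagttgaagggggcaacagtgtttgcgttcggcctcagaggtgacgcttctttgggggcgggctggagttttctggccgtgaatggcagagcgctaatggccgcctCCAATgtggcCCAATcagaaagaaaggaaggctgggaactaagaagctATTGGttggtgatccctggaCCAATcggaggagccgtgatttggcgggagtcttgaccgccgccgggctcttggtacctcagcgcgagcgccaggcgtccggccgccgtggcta
TK1: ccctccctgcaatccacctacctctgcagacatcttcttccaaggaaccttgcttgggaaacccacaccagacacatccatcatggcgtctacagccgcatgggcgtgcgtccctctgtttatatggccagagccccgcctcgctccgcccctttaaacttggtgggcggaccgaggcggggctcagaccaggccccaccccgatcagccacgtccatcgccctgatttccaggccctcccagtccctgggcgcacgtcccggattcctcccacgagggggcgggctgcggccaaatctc
CDC6: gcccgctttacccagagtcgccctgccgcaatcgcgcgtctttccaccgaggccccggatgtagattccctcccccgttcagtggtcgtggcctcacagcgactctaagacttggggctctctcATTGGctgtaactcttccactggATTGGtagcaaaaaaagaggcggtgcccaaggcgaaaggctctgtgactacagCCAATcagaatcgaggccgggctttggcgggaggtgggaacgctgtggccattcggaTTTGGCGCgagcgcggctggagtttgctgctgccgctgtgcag
RRM2: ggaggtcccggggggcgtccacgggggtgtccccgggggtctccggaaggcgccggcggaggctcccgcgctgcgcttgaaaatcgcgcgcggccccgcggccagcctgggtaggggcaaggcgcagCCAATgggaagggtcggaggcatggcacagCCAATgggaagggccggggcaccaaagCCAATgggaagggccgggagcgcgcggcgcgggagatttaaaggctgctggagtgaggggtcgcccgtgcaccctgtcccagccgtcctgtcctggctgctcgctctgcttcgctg
MCM6: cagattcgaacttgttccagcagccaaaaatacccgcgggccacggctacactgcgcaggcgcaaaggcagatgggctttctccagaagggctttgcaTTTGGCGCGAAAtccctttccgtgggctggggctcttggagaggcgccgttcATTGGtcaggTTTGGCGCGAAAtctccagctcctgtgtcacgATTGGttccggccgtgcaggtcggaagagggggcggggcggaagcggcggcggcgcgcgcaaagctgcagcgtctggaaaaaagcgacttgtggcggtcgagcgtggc
E2F1: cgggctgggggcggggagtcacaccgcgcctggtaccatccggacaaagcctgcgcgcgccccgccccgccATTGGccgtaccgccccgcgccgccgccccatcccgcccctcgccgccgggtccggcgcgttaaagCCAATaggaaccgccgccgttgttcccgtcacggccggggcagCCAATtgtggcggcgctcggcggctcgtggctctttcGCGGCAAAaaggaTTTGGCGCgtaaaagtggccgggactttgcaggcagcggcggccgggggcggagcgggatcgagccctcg
The MCM6 promoter holds 4 E2F matches in 2 overlapping pairs, with first bases at -152, -148, -90 and -86 from the start. That of E2F1 holds 2 (at -33 and -20) and that of CDC6 holds 1 (at 8 bases after the start). The windows of CDC45, TK1 and RRM2 hold none of the exact E2F strings searched, while CDC45 has 4 and RRM2 has 3 CCAAT boxes. Other forms of the E2F site were not searched, so a window without a match may still hold one.

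The deposited RMA values are read here as log2 and have been centred, each probe set on its median over the 4 arrays, so differences between arrays remain and levels do not. KDM1A, the targeted gene, read -1.17 on the siRNA-2 array and -1.55 on the siRNA-1 array, against 1.23 and 1.17 on the control arrays, and so was lower on both knockdown arrays. Its siRNA-1 difference was -2.75, larger than that with siRNA-2, yet it did not pass the siRNA-1 test. With siRNA-2 it fell by 2.37 on the log2 scale (adjusted p = 0.0151), and with both siRNAs pooled it differed by -2.56 ± 0.16 (SE; adjusted p = 0.0855). Hepatocyte markers were bright: all 8 measured of 9 had a probe set in the class at 8 or above, a stand-in for the lost level that rests on the rounding step of each value. Their summed centred value was 3.27 with siRNA-2 and 0.99 with siRNA-1, against -0.78 and -1.73 on the control arrays. Of 9 measured markers of other cell types, 1 (DCN) was in that class and 4 (PTPRC, VWF, KRT5 and CD3E) were below 4, with summed values of 0.63 and 0.63, against -0.60 and -0.10. With siRNA-2 the differences in that list ran between -0.78 (PECAM1) and 2.65 (COL1A1), with 1 gene called higher and 2 lower, and with siRNA-1 between -0.31 (PECAM1) and 1.10 (COL1A1), with none called. Without COL1A1 the sums were -1.44 on the siRNA-2 and 0.12 on the siRNA-1 array, against -0.09 and 0.57 on the controls. Hybridization spike-ins, added in fixed amounts, had medians of 0.69 on the siRNA-2 and 0.64 on the siRNA-1 array, against -0.71 and -0.64 on the controls (18 probe sets). The 5' minus 3' value of ACTB was -0.38 and -0.26, against 0.34 and 0.23. These controls split the arrays the same way as the knockdown, and their part in the results was not tested.

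With siRNA-2, 14 of 38 replication genes fell and 7 rose. Those that fell included the helicase genes MCM4, MCM6, MCM7 and MCM10, CDC45, the loading factor CDC6, the nucleotide genes TK1, RRM2 and RRM1, and cyclin E2. Those that rose included primase, DNA ligase 1, E2F1, E2F2 and cyclin E1. Over all 19775 genes, 10.5% fell and 13.7% rose by the same test (limma, adjusted p under 0.05), against 36.8% and 18.4% of the members (24.2% of all genes in either direction). In RNA from whole cultures, fewer cells in S phase and less of these transcripts per cell cannot be told apart. The median difference was -0.13 over the members and -0.02 over all genes. The share of members that rose was near that of all genes, and at 1.5-fold it was lower (7.89% against 10.2%). No member was in the brightness class below 4, which held 26.9% of all genes. Without that class, 40.3% of the remaining 14456 genes were called in either direction. At 1.5-fold 8.47% of those genes were lower and 12.8% higher, where 9 and 3 of the 38 members were. The test takes its spread from the 2 control arrays and assumes that the siRNA-2 array varies like them. After quantile normalization of the centred values it called 0 members and 0 of 19775 genes.

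With siRNA-1 the representative probe sets of the members had differences between -0.46 (CCNE2) and 0.56 (GINS3). Their median was 0.04, against 0.00042 over all genes. No member passed the test, nor did any of the 19775 genes (0.0% called), although 12 members and 5340 genes (27.0%) had an unadjusted p under 0.05. The targeted gene KDM1A, at -2.75 with siRNA-1, did not pass either. By representative probe set no member reached a 1.5-fold difference with siRNA-1. Of all genes, 3.29% were that much higher and 2.13% that much lower. Other probe sets of RRM1 (-0.66), RRM2 (-0.65), CCNE2 (-0.59) and E2F2 (0.63) were past 1.5-fold with siRNA-1. With siRNA-2, 3 members were at least 1.5-fold higher and 9 at least 1.5-fold lower, where the shares over all genes were 10.2% and 6.57%. After quantile normalization 0 members were 1.5-fold higher and 5 lower with siRNA-2 (5.51% and 4.84% of all genes), beside 3 higher and 1 lower with siRNA-1 (5.03% and 4.6%). Without that step, by representative probe set at 2-fold with siRNA-2, there were 4 lower (CDC45, RRM2, TK1 and CCNE2) and 0 higher. The shares over all genes were 2.17% and 3.94%. Other probe sets of RFC5 (-2.82 and -1.89) and RRM1 (-1.09) were also past 2-fold lower.

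With the 2 siRNAs pooled against the controls, no member passed the limma test, in which 1 of 19775 genes was called higher (0.00506%) and 0 lower (0.0%). At an unadjusted p under 0.05 there were 10 members and 2913 genes (14.7%). Without the siRNA-1 array the fit is the siRNA-2 comparison again, with 7 members called higher and 14 lower and 4786 of 19775 genes (24.2%) called. Both knockdown arrays lay above both controls for 15 members and below both for 14, where the shares over all genes were 23.7% above and 25.4% below. The median difference was -0.05 over the members and -0.0038 over all genes. By representative probe set, CCNE2 had the largest difference (-1.01 ± 0.39, SE, n = 2 arrays per group, adjusted p = 0.351), followed by TK1 (-0.86 ± 0.31) and RRM2 (-0.79 ± 0.27). RFC5 differed by -1.53 and -1.18 on the 2 probe sets that do not represent it. E2F2 had the largest upward value (0.57 ± 0.11, adjusted p = 0.206).

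**Figure D1:**
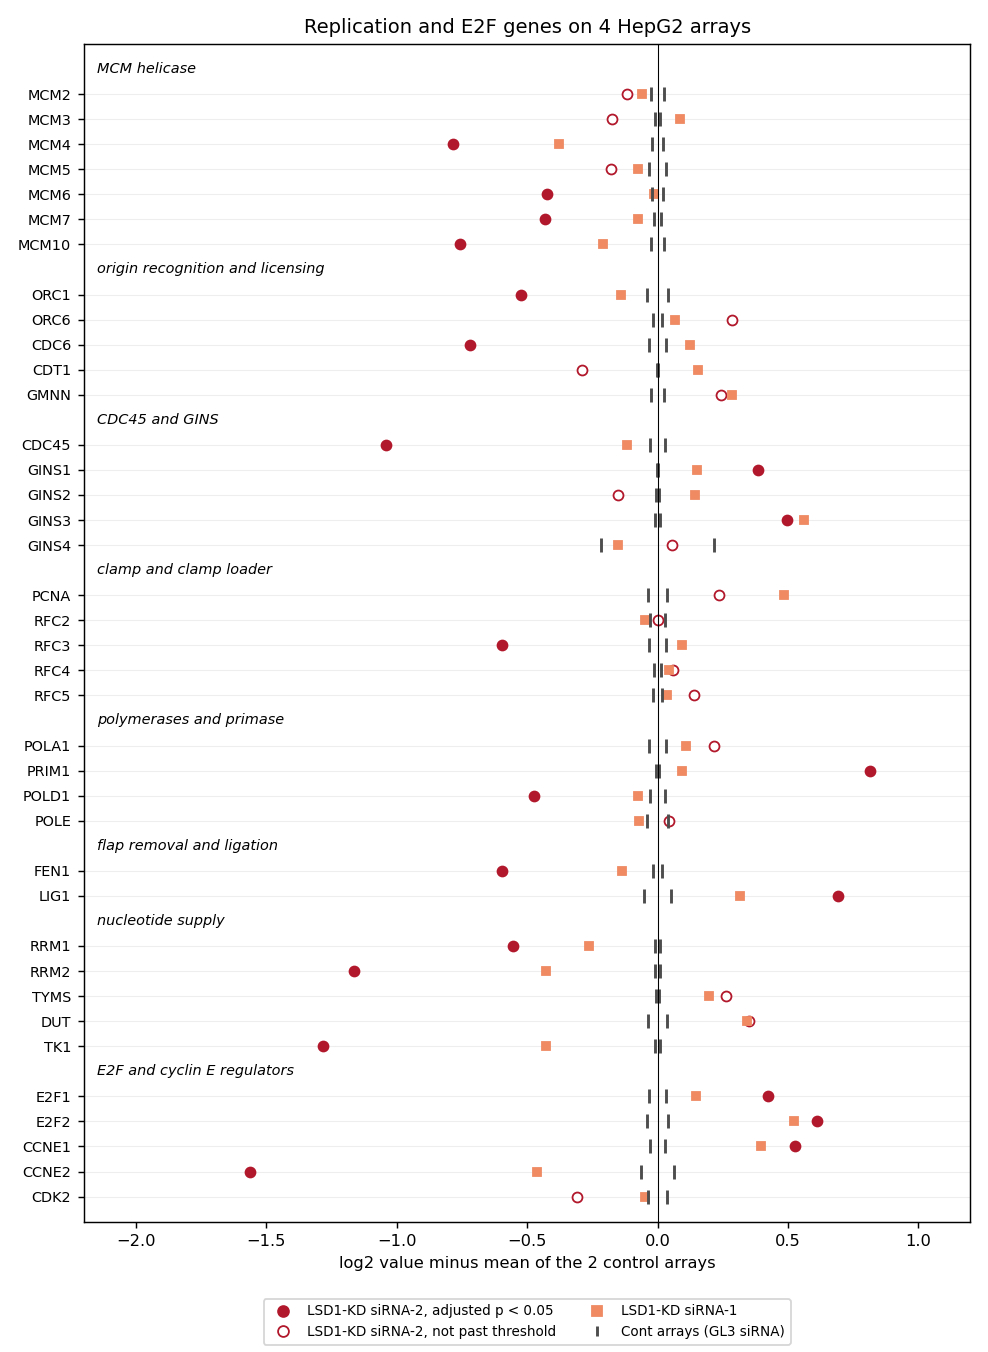
Each row is a member gene, grouped by role, and the horizontal axis is its log2 value minus the mean of the control arrays: circles are siRNA-2 (filled where it passed the test against the controls), squares siRNA-1 and bars the 2 control arrays. By representative probe set, the siRNA-2 values spread from -1.56 (CCNE2) to 0.82 (PRIM1), whereas siRNA-1 values stayed between -0.46 and 0.56.

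Among the MCM helicase genes, 4 of 7 fell with siRNA-2 and none rose, with a median difference of -0.42. MCM4, a subunit of the ring, read -0.58 on the siRNA-2 array and -0.18 on the siRNA-1 array, against 0.22 and 0.18 on the control arrays. By this representative probe set both knockdown arrays lay below both controls, siRNA-2 the lower. Its difference was -0.78 ± 0.07 (SE; adjusted p = 0.0204) with siRNA-2, 1.72-fold lower, and -0.38 with siRNA-1. The other MCM4 probe sets differed by -0.27, 0.06, 0.0029 and -0.05 with siRNA-1. On the one at 0.06, also in the top brightness class, the siRNA-1 array lay above both controls. MCM10, which helps to activate the loaded helicase, read -0.64 on the siRNA-2 array and -0.09 on the siRNA-1 array, against 0.14 and 0.09 on the control arrays. It differed by -0.76 ± 0.07 (SE; adjusted p = 0.0212). MCM6 (-0.42) and MCM7 (-0.43), further subunits, also fell, and on the siRNA-1 array MCM6 sat level with the controls (-0.01). The subunits MCM2 (-0.12), MCM3 (-0.17) and MCM5 (-0.18) did not pass. The members of one ring thus had siRNA-2 differences from -0.78 to -0.12.

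Of the 5 genes of origin recognition and licensing, 2 fell. CDC6, the loader of the MCM ring, read -0.72 on the siRNA-2 array and 0.12 on the siRNA-1 array, against 0.03 and -0.03 on the control arrays. Its siRNA-2 array lay below and its siRNA-1 array above both controls, and its siRNA-2 difference was -0.72 ± 0.07 (SE; adjusted p = 0.0233). A second CDC6 probe set, also in the top brightness class, differed by -0.66 with siRNA-2 and 0.0035 with siRNA-1. Its siRNA-1 array lay between the controls. ORC1, the large subunit of the origin complex, read -0.43 on the siRNA-2 array and -0.05 on the siRNA-1 array, against 0.13 and 0.05 on the control arrays. It fell by 0.52 on the log2 scale with siRNA-2 (adjusted p = 0.0357). CDT1, the partner of CDC6 in loading, differed from the controls by -0.29 (siRNA-2) and 0.15 (siRNA-1). Its inhibitor geminin, GMNN, read 0.24 and 0.29, and the origin subunit ORC6 0.29 and 0.07. None of these 3 passed.

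CDC45 and the GINS complex, partners of the MCM ring in the active helicase, went different ways. CDC45 read -0.97 on the siRNA-2 array and -0.04 on the siRNA-1 array, against 0.04 and 0.10 on the control arrays. It was lowest with siRNA-2, at -1.04 ± 0.07 (SE; adjusted p = 0.0163), 2.06-fold lower. GINS3 read 0.24 on the siRNA-2 array and 0.31 on the siRNA-1 array, against -0.24 and -0.26 on the control arrays, with both knockdown arrays above both controls. With siRNA-2 GINS3 (0.50, adjusted p = 0.0317) and GINS1 (0.39, adjusted p = 0.0450) rose, while GINS2 (-0.15) and GINS4 (0.05) did not pass. The control arrays of GINS4 were 0.43 apart, the widest gap between controls among the members.

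The clamp PCNA read 0.10 on the siRNA-2 array and 0.35 on the siRNA-1 array, against -0.10 and -0.17 on the control arrays, higher on both knockdown arrays and not past the test with either siRNA. Of its loader genes, RFC3 read -0.60 on the siRNA-2 array and 0.09 on the siRNA-1 array, against -0.03 and 0.03 on the control arrays, so that the siRNA-2 array alone was low (difference -0.60 ± 0.07, adjusted p = 0.0283). RFC2 (0.00) and RFC4 (0.06) did not pass with siRNA-2. RFC5 depended on the probe set. The one that represents it differed by 0.14. A second probe set, not in the top brightness class, read -2.70 on the siRNA-2 array and -0.11 on the siRNA-1 array, against 0.13 and 0.11 on the control arrays, a difference of -2.82 or 7.08-fold lower. The third read -1.65 on the siRNA-2 array and -0.23 on the siRNA-1 array, against 0.25 and 0.23 on the control arrays, a difference of -1.89. Both passed a test over all 54613 probe sets (adjusted p = 0.0255 for each). By size of the siRNA-2 difference they stood in places 21 and 152 from the lowest of all probe sets. These RFC5 probe sets were singled out after their values were seen.

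Of the polymerase genes, PRIM1, the catalytic primase subunit that makes the RNA primer, rose and POLD1, the catalytic subunit of polymerase delta, fell. PRIM1 read 0.77 on the siRNA-2 array and 0.05 on the siRNA-1 array, against -0.05 and -0.05 on the control arrays. The siRNA-2 array stood well above the rest, with a difference of 0.82 ± 0.07 (SE; adjusted p = 0.0189), 1.76-fold higher. POLD1 read -0.42 on the siRNA-2 array and -0.02 on the siRNA-1 array, against 0.02 and 0.08 on the control arrays, a siRNA-2 difference of -0.47 ± 0.07 (SE; adjusted p = 0.0368). POLA1, which extends the primer, read 0.22 and POLE, the catalytic subunit of polymerase epsilon, 0.05, and neither passed. In the joining of strands, the flap nuclease FEN1 read -0.52 on the siRNA-2 array and -0.06 on the siRNA-1 array, against 0.10 and 0.06 on the control arrays, and it fell with siRNA-2 (-0.59 ± 0.07, adjusted p = 0.0258). The ligase LIG1 read 0.51 on the siRNA-2 array and 0.13 on the siRNA-1 array, against -0.13 and -0.24 on the control arrays, and it rose with siRNA-2 (0.69 ± 0.08, adjusted p = 0.0275).

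Of the 5 genes of nucleotide supply, 3 fell and none rose with siRNA-2. TK1, the thymidine kinase that salvages thymidine, read -1.06 on the siRNA-2 array and -0.21 on the siRNA-1 array, against 0.23 and 0.21 on the control arrays. Its siRNA-2 difference was -1.28 ± 0.07 (SE; adjusted p = 0.0151), 2.44-fold lower, and its siRNA-1 difference was -0.43 (adjusted p = 0.107). RRM2, the small subunit of ribonucleotide reductase, which makes deoxynucleotides, read -0.95 on the siRNA-2 array and -0.21 on the siRNA-1 array, against 0.21 and 0.23 on the control arrays. The difference with siRNA-2 was -1.16 ± 0.07 (SE; adjusted p = 0.0151), 2.24-fold lower, and with siRNA-1 -0.43 (adjusted p = 0.107). RRM1, the large subunit, read -0.42 on the siRNA-2 array and -0.13 on the siRNA-1 array, against 0.13 and 0.15 on the control arrays, and fell with siRNA-2 (-0.55 ± 0.07, adjusted p = 0.0274). For these 3 genes both knockdown arrays lay below both controls, siRNA-2 the lower. Thymidylate synthase, TYMS (0.26 with siRNA-2, 0.20 with siRNA-1), and the dUTPase gene DUT (0.35 and 0.34) did not pass.

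The regulators split by gene. CCNE2, encoding cyclin E2, read -1.30 on the siRNA-2 array and -0.20 on the siRNA-1 array, against 0.20 and 0.32 on the control arrays, and its siRNA-2 difference of -1.56 ± 0.09 (SE; adjusted p = 0.0151), 2.96-fold lower, was the largest of any member's representative probe set. CCNE1, encoding cyclin E1, which binds the same kinase, read 0.31 on the siRNA-2 array and 0.18 on the siRNA-1 array, against -0.18 and -0.24 on the control arrays, and rose with siRNA-2 (0.53 ± 0.07, adjusted p = 0.0325). E2F2, an activating E2F factor, read 0.33 on the siRNA-2 array and 0.24 on the siRNA-1 array, against -0.24 and -0.32 on the control arrays. E2F1, a further activator, read 0.33 on the siRNA-2 array and 0.06 on the siRNA-1 array, against -0.06 and -0.12 on the control arrays. With siRNA-2 E2F2 rose by 0.61 (adjusted p = 0.0294) and E2F1 by 0.42 (adjusted p = 0.0459), so higher E2F transcripts and lower transcripts of 14 members were read on the same array. CDK2, the partner kinase of cyclin E, differed by -0.31 and did not pass.

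**Figure D2:**
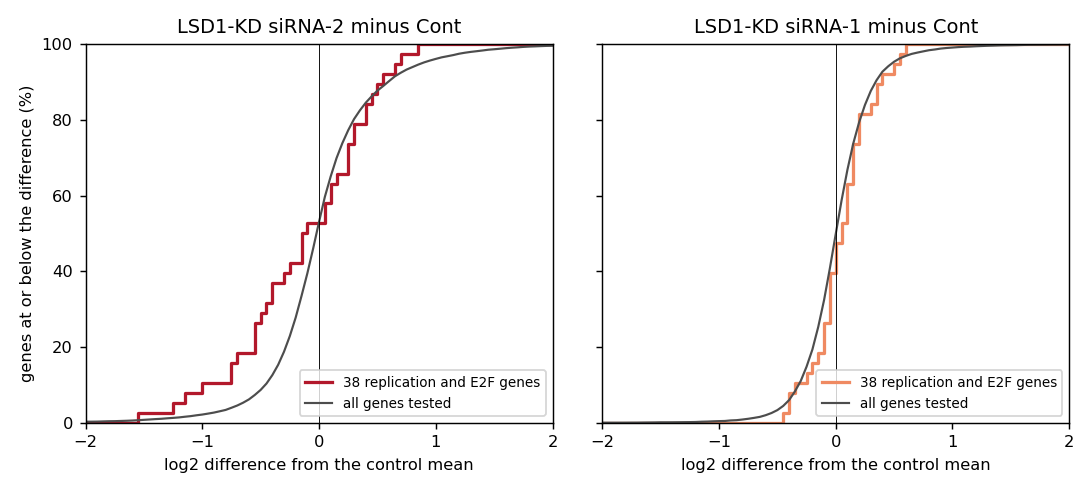
The vertical axis is the percentage of genes at or below each log2 difference from the control mean (horizontal axis), for the 38 members (coloured steps) and all 19775 genes (grey), with siRNA-2 on the left and siRNA-1 on the right. With siRNA-2 the member curve lies above that of all genes over most of the negative range, where 23.7% of members and 6.57% of all genes were at least 1.5-fold lower.

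The siRNAs differed from each other at 6 members in the test of siRNA-2 minus siRNA-1, which also takes its spread from the controls. CCNE2 (-1.10 ± 0.11, adjusted p = 0.0428), CDC45 (-0.93 ± 0.08, adjusted p = 0.0415), TK1 (-0.86 ± 0.08, adjusted p = 0.0422), CDC6 (-0.84 ± 0.09, adjusted p = 0.0443) and RRM2 (-0.74 ± 0.08, adjusted p = 0.0460) were lower with siRNA-2. PRIM1 was higher (0.72 ± 0.08, adjusted p = 0.0465). Of all genes 7.28% passed this test, 3.01% lower and 4.26% higher, and the median difference was -0.02, against -0.18 over the members. KDM1A did not pass this test (siRNA-2 minus siRNA-1 0.38 ± 0.08, adjusted p = 0.0897). All 6 calls ended when probe sets ending in _s_at or _x_at were left out (CDC45 then has none), when all probe sets were tested, and after quantile normalization. By representative probe set GINS3, PCNA, DUT and GMNN differed from the controls by 0.50, 0.24, 0.35 and 0.24 with siRNA-2. With siRNA-1 these values were 0.56, 0.48, 0.34 and 0.29. None passed the test of the difference, which does not show that the siRNAs acted alike on them. Another DUT probe set, in a dimmer class, differed by -0.40 with siRNA-2 and 0.37 with siRNA-1 (siRNA-2 minus siRNA-1 -0.77). The remaining DUT probe set differed by 0.27 and 0.31. Neither passed the test between the siRNAs over all probe sets.

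Several probe sets per gene gave a check within each array. Of the 24 members with more than 1 probe set, 19 had siRNA-2 differences of 1 sign over all of them. When dim probe sets, below 4, were left out this held for 17 of 21 genes. With siRNA-2 all 5 MCM4 probe sets lay between -0.78 and -0.53, both of RRM2 at -1.16 and -1.17, and those of TK1 at -1.28 and -1.13. The second RRM1 probe set read lower than the first (-1.09). The genes whose probe sets disagreed were RFC5, RFC3 (with 1 of 3 at 0.20), DUT (1 of 3 at -0.40), GINS4, and E2F2, whose dim probe set read -0.56 while its brighter ones read 0.61 and 0.996. Tested over all probe sets, 24 of 75 member probe sets fell with siRNA-2 (6.1% of all probe sets did) and 5 rose (7.56%).

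**Figure D3:**
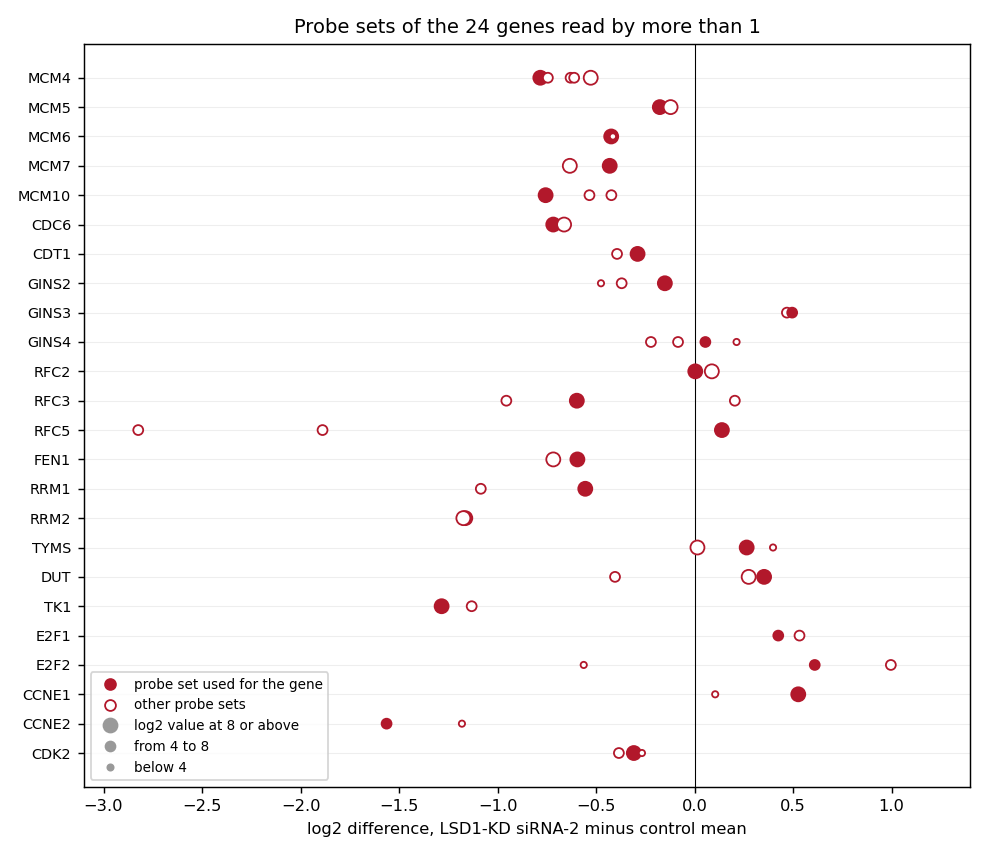
Each point is a probe set of a member gene read by more than 1, placed by its log2 difference between siRNA-2 and the control mean. Filled points represent the gene elsewhere in the text, and point size shows the brightness class. MCM4, RRM2 and TK1 probe sets lie close together, whereas those of RFC5 run from -2.82 to 0.14.

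The E2F motif was common in these promoters. Of 33 members with a promoter in the RefSeq table, 17 (51.5%) held at least 1 match in the 300-base window. The same held for 671 of 15382 promoters of the genes tested (4.36%) and 908 of all 27305 RefSeq promoters (3.33%). The CCAAT box was found in 18 members (54.5%), against 36.1% of promoters of the genes tested and 35.7% of all promoters. Among members that fell with siRNA-2, 4 of 12 held an E2F match, namely MCM6, MCM7, CDC6 and RFC3. CCNE2 and MCM4 also fell, but had no promoter in the table and were not searched. Among those that rose, 5 of 7 did (GINS1, GINS3, LIG1, E2F1 and E2F2), as did 8 of 14 of the rest. These are counts of exact strings, in which other forms of the E2F site were not counted, and overlapping matches on both strands were counted apart.

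**Figure D4:**
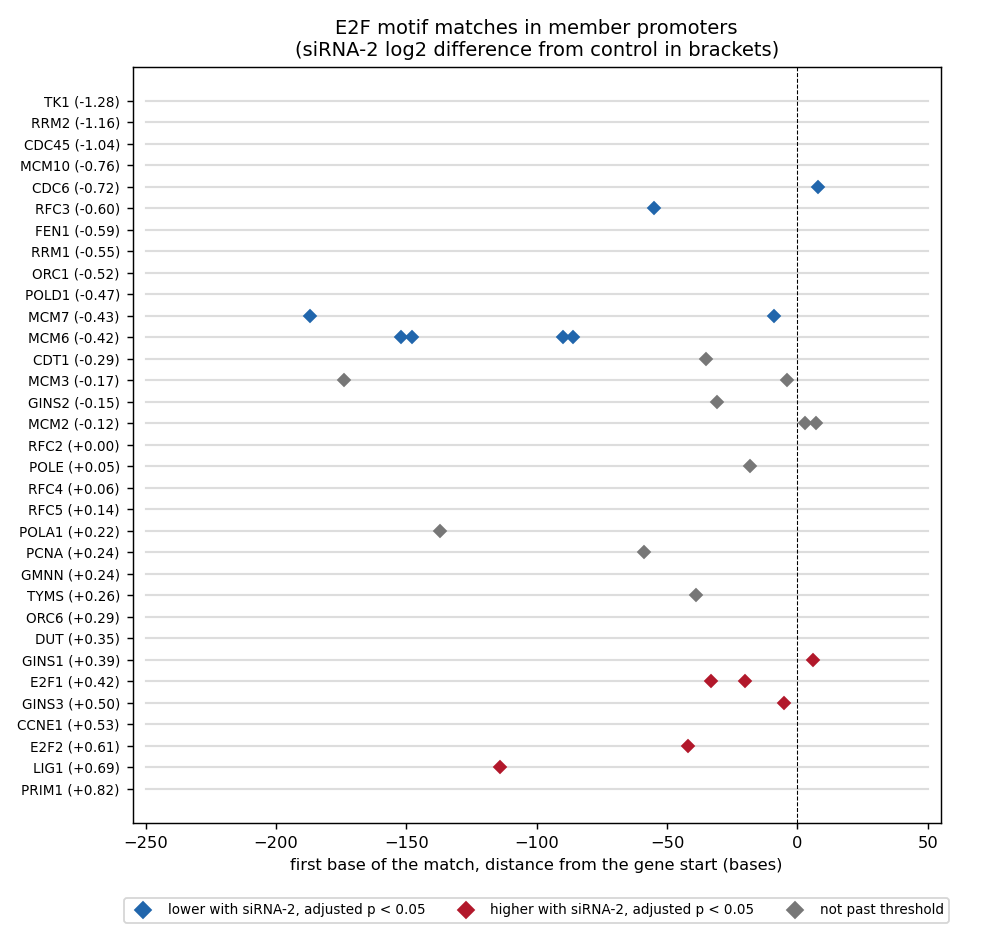
Each line is the promoter of a member from 250 bases before to 50 bases after the gene start, ordered by the siRNA-2 log2 difference given beside the name, and diamonds mark the first base of each E2F motif match. Of the 33 genes drawn, the 4 lowest (TK1, RRM2, CDC45 and MCM10) have no match to the exact strings searched, and the lowest with one is CDC6 (-0.72). Other forms of the E2F site were not searched. CCNE2 (-1.56) and MCM4 (-0.78) had no promoter in the RefSeq table and were not searched.

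Another 71 genes of replication, nucleotide supply, replication-coupled chromatin and the E2F family were read as well, of which 70 were measured. They had 154 probe sets, and values are given for the representative probe set of each gene alone. With siRNA-2, 11 rose and 12 fell, with a median of 0.01 (13.7% and 10.5% of all genes). TOP1, the topoisomerase that relaxes DNA ahead of the fork, read -1.44 on the siRNA-2 array and -0.36 on the siRNA-1 array, against 0.55 and 0.36 on the control arrays. Both knockdown arrays were low, and its siRNA-2 difference was -1.90 ± 0.12 (SE; adjusted p = 0.0153). TFDP1, the dimer partner of E2F factors, read -1.78 on the siRNA-2 array and -0.08 on the siRNA-1 array, against 0.08 and 0.12 on the control arrays, far lower on the siRNA-2 array (difference -1.88 ± 0.07, adjusted p = 0.0151). DCK, which salvages deoxycytidine, read -1.59 on the siRNA-2 array and 0.43 on the siRNA-1 array, against -0.02 and 0.02 on the control arrays, low with siRNA-2 (-1.59 ± 0.07, adjusted p = 0.0151) and above the controls with siRNA-1. GART (-0.95), a purine synthesis enzyme, and TIPIN (-0.93), a fork protection protein, also fell, and the histone chaperone ASF1B rose (0.996).

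By list, 3 of 15 origin and firing factors rose and 0 fell with siRNA-2. Of 23 fork proteins 4 rose and 3 fell, and of 13 nucleotide genes 1 rose and 4 fell. Among 9 chromatin genes 1 rose and 3 fell, and among 10 E2F family genes and partners 2 rose and 2 fell. None of the 70 passed with siRNA-1, where TOP1 (-0.81), TFDP2 (0.71), SAMHD1 (0.62) and POLD4 (-0.57) had the largest differences. None passed with both siRNAs pooled, where TOP1 (-1.36 ± 0.39), TFDP1 (-1.03 ± 0.59), ASF1B (0.74 ± 0.20) and TFDP2 (0.72 ± 0.10), a further dimer partner of E2F, led. In the test between the siRNAs 6 were lower with siRNA-2 and 0 higher: DCK (-2.01), TFDP1 (-1.71), GART (-1.02), UHRF1 (-0.86), NME1 (-0.71) and TIPIN (-0.66).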

How the data were processed

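RNA of HepG2 cells was read on 4 Affymetrix HG-U133 Plus 2 arrays. The deposited values are log2 values made by the authors with RMA, per the submitters' processing notes (version and joint normalization not given in the sources used here; base 2 is the one RMA gives). In each probe set the median of the 4 arrays was 0 within 5e-07. Brightness was therefore taken from the rounding step that floating-point numbers keep: at 8 or above, from 4 to 8, or below 4. About 22.0% of probe sets fell in the top class. Some fall by chance into the next brighter class. Each gene was represented by its brightest class, then by suffix (none before _a_at, _s_at and _x_at), then by identifier. Of the members 29 were in the top class and 9 from 4 to 8, and no filter on dim genes was applied. Array medians over genes ran from -0.012 to 0.0035. Precision is limited by the number of arrays.

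Tests used limma 3.58.1 in R 4.3.3 over 19775 genes, two-sided, with Benjamini-Hochberg adjustment and a threshold of 0.05. One model set 2 knockdown against 2 control arrays (prior SD 0.13). A 3-group model compared each siRNA with the controls and with the other siRNA (prior SD 0.067). The fits were tested on simulated data with a common spread for all genes and the same change on both knockdown arrays. That check cannot show whether a lone array varies like the controls. With 2 arrays on each side the smallest p of an exact permutation test is 0.33. The members and lists were chosen with earlier results of these data known. Named were all members, with values on every array for the 6 largest differences per comparison; further members shown by array were chosen after their values were seen. For the other pathway genes these were the 6 largest past the threshold, or the 4 largest where none passed. Replicate numbers in the titles were not taken as pairs.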

Additional observations from a re-analysis of the deposited data

Results flagged for a closer look

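Effects of siRNA-2 and siRNA-1 relative to the same controls differed at 6 members by a test of the difference itself (limma, siRNA-2 minus siRNA-1). The differences were -1.10 for CCNE2, -0.93 for CDC45, -0.86 for TK1, -0.84 for CDC6, -0.74 for RRM2 and 0.72 for PRIM1. By its representative probe set CDC6 lay below both controls with siRNA-2 (-0.72 from their mean) and above both with siRNA-1 (0.12). Its second probe set, also in the top brightness class, lay below both with siRNA-2 (-0.66) and between them with siRNA-1 (0.0035). Each siRNA was read on 1 array, so a difference between siRNAs and one between arrays cannot be told apart.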

How the results depend on the processing

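With siRNA-2, 7 members higher and 14 lower became 5 and 8 without _s_at and _x_at probe sets, where 29 of 38 members could be tested and 18.7% of all genes were called (24.2% as reported), and 4 and 12 genes when all probe sets were tested. Quantile normalization, which gives the centred arrays 1 common distribution, left 0 and 0. Between the siRNAs, 1 higher and 5 lower became 0 and 0 in each of these 3 settings, and 1 and 11 without dim genes. The calls over all genes rose there too, to 3475 of 14456 genes without dim genes from 1439 of 19775 as reported. CCNE2 lost that call with the mean of a gene's probe sets (-0.85, adjusted p = 0.0667). RFC5 with siRNA-2 turned to -1.52 with that mean and to -2.82 and -1.89 with its other probe sets, an alternative added after seeing the data. With siRNA-1 0 members passed in every setting run.

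For both siRNAs together 0 members passed except without the siRNA-1 array; leaving out each array in turn gave 0 to 7 higher and 0 to 14 lower. The replicate block gave 0 higher and 0 lower. Numbers in the titles are not stated to pair arrays, and the correlation of same-numbered deviations was 0.034, equal for both pairs because each group has 2 arrays. Members below both controls numbered 14, and 8 without _s_at and _x_at probe sets. With siRNA-2, 3 members higher and 9 lower at 1.5-fold became 0 and 4 at 2-fold and 0 and 5 after quantile normalization, which gave 3 higher and 1 lower with siRNA-1.

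Median differences moved as follows. Both siRNAs together gave -0.10 with the mean of probe sets, -0.021 after quantile normalization, and -0.13 to 0.0398 on leaving out arrays, beside -0.05 as reported. For siRNA-2 the values were -0.16, -0.17 without _s_at and _x_at probe sets, -0.12 with array medians subtracted, -0.0936 after quantile normalization, and -0.16 to -0.12 without 1 array. For siRNA-1 they were -0.0055 with the mean, 0.0668 without _s_at and _x_at probe sets, and 0.0244 to 0.0606 without 1 array. For siRNA-2 minus siRNA-1 they were -0.26, -0.25, -0.16 and -0.14 in the order mean, suffix, medians and quantile.

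Over all genes, both siRNAs together called 1 gene, and 0 with the mean, without dim genes, under the block, with robust moderation and over all probe sets, 425 after quantile normalization, 4786 without the siRNA-1 array and 0 without any other array. With siRNA-2 4786 became 5822 of 14456 (40.3%) without dim genes, 7460 over all probe sets and 0 after quantile normalization. With siRNA-1 0 became 112 with the mean, 512 without dim genes and 640 with medians subtracted. Between the siRNAs 1439 became 611 without _s_at and _x_at probe sets, 3475 of 14456 without dim genes and 3134 with medians subtracted. That count became 0 over all probe sets and after quantile normalization. Single-siRNA tests without a control array have no residual degrees of freedom and gave values only. The cause of these changes was not tested.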
